A study of Mus musculus with 12 samples.

Results

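Expression of 10 genes that ERK signalling induces and that feed back on it was followed in skin-derived precursors (SKPs), dermal cells of the mouse that grow as floating spheres. The genes were the MAP kinase phosphatases Dusp4, Dusp5 and Dusp6, the Sprouty genes Spry1, Spry2 and Spry4, the related Spred1 and Spred2, and the ETS transcription factors Etv4 and Etv5. They were taken by symbol from the array annotation, with the brightest probe set for each symbol, out of 22180 genes with a symbol of their own. All 10 lay above the array median on each of the 12 arrays and were among the 13153 genes tested. RNA came from 4 groups of 3 arrays: SKPs of uninjured skin treated with vehicle, and SKPs of wounded skin treated with vehicle, trimebutine maleate (a drug of gut motility) or alprostadil (prostaglandin E1). All mice were aged 9 months, and the strain label was CD57/Bl6. Secondary spheres were used, and every culture received EGF (20 ng/ml), FGF2 (40 ng/ml) and 2% B27. Replicates were labelled as biological, from separate SKP isolates according to the series description. Neither drug dose nor treatment time nor the sampled skin site was stated in the labels, and an effect of wounding and one of site cannot be told apart.

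FGF and EGF receptors activate RAS, RAF and MEK, and MEK phosphorylates ERK. Active ERK induces its own brakes: the phosphatases remove phosphate from ERK, and Sprouty and Spred proteins act further up, on the way from the receptor to RAF. Etv4 and Etv5 are transcription factors that carry FGF and EGF signals to target genes. Both ligands were in the medium of every group.

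Values are log2 expression per probe set, so a difference of 1 is a doubling, and a level of one gene cannot be set against that of another. Array medians lay between 6.57 and 6.74. Of the dermal markers, Fn1, Vim, Snai2 and Col1a1 had their lowest values at 13.81, 13.61, 11.89 and 11.95, and Pdgfra, Twist1 and Thy1 theirs at 11.19, 8.80 and 7.87. Nes and Ngfr, markers of SKPs, ran from 6.60 to 7.12 and from 6.72 to 7.90, near the array medians, and Sox2, a further one, reached at most 5.61 and lay below the filter. Keratinocyte and T cell markers were low, with means of 6.08 to 6.44 over 7 and 5.68 to 5.96 over 5 genes on the 12 arrays. Wound alprostadil replicate 1 stood apart, with a mean of 11.07 over 11 macrophage markers against 6.34 to 7.76 on the other arrays. In bulk RNA, fewer cells of a type and less RNA per cell cannot be told apart.

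The 10 genes did not move as 1 block. In limma no member passed an adjusted p of 0.05 in any of the 6 comparisons of groups or in the F test across the 4 groups (0.0152% of all tested genes passed that), where Spry2 had the smallest p (0.00919, adjusted p = 0.555). The median of their ranges over the arrays was 1.02 log2 units, against 0.583 for all tested genes, and Spred1 and Spred2 ranged over only 0.49 and 0.39. The share of that variance lying between groups was ordinary, with a median of 33.7% against 30.1% for all tested genes. Spry2 had the highest share among the members (69.6%), and Dusp5 (17.7%) and Spred1 (19.2%) the lowest. The plot of members by array shows how far replicates of a group lay from each other.

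**Figure D1:**
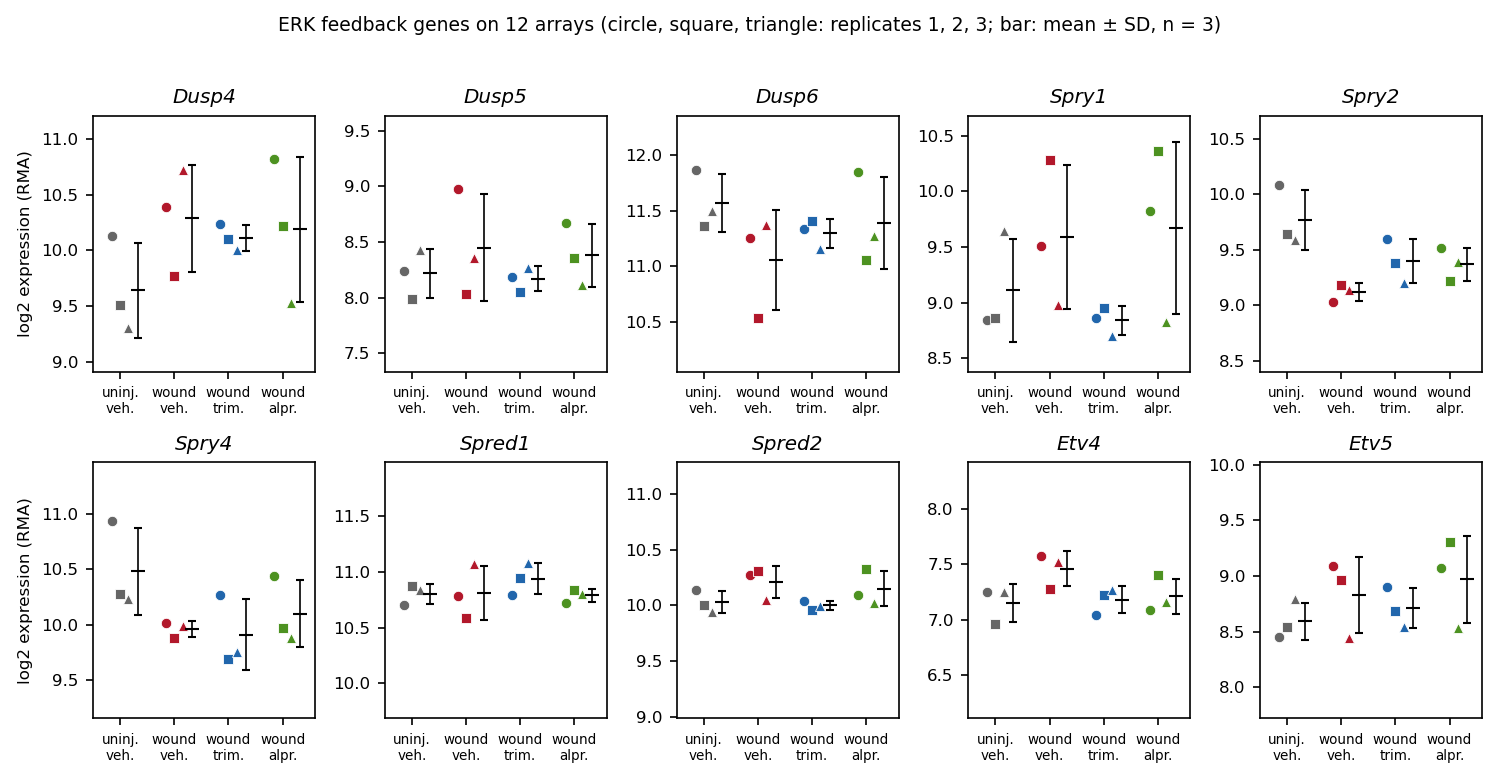
Each panel gives log2 expression (RMA) of 1 member on the 12 arrays, 3 per group, with replicates 1, 2 and 3 as circle, square and triangle and the group mean ± SD beside them; all panels span the same number of log2 units. Spry2 is lowest on the wound vehicle arrays (9.03 to 9.18) and has its highest mean in uninjured vehicle (9.59 to 10.08), where wound trimebutine replicate 1 (9.60) reaches into the range, while Spry1 spreads from 8.83 to 10.36 within wound alprostadil alone.

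Wound vehicle was compared with uninjured vehicle to see what set the spheres of wounds apart when no drug was given. Sprouty genes 2 and 4 and Dusp6 had lower means in wound vehicle, and the other 7 members higher ones, where 48.6% of all tested genes had lower and 51.4% higher means. Of all tested genes 0.0456% passed (6 genes), and 0 of the 10 members did. At an unadjusted p under 0.05 there were 3 members, Spry2 and Spry4 lower and Etv4 higher, where 13% of all tested genes lay under that p (8.24% lower and 4.75% higher). The arrays of both groups did not overlap for the same 3 members, as for 18% of all tested genes (10% lower and 8.01% higher). The median over the members was 0.21, against 0.01 for all tested genes, and the median size of a difference was 0.39 against 0.14.

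Spry2 is an inhibitor of signalling from FGF receptors that also prolongs signalling from the EGF receptor. On the uninjured vehicle arrays it was at 10.08, 9.64 and 9.59, and on the wound vehicle arrays at 9.03, 9.18 and 9.14. All 3 wound vehicle arrays were below all 3 uninjured ones, and the highest value belonged to uninjured replicate 1. The means were 9.77 ± 0.27 and 9.12 ± 0.08 (SD, n = 3), a difference of -0.65 ± 0.15 log2 units (SE; 95% interval -0.98 to -0.33), or 0.636-fold. In limma the unadjusted p was 0.00121 and the adjusted p 0.168, so the gene did not pass. It ranked 95 of the 13153 genes by p, and leaving out any single array gave differences of -0.74 to -0.50 with adjusted p of 0.0925 or more.

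Spry4, which inhibits RAF activation, read 10.93, 10.28 and 10.23 on the uninjured vehicle arrays and 10.02, 9.88 and 9.99 on the wound vehicle arrays. Its groups did not overlap either, and uninjured replicate 1 was again the highest. The difference was -0.52 ± 0.22 (adjusted p = 0.364), and it was -0.29 without uninjured vehicle replicate 1. Spry1, a further inhibitor of receptor tyrosine kinase signalling, differed by 0.48 ± 0.41 (adjusted p = 0.637), in the opposite direction to Spry2 and Spry4, and by 0.13 without wound vehicle replicate 2 and 0.78 without replicate 3. Its arrays overlapped widely, at 8.84, 8.86 and 9.64 in uninjured vehicle and 9.51, 10.28 and 8.98 in wound vehicle.

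Dusp6, a cytoplasmic phosphatase that acts on ERK, was at 11.87, 11.36 and 11.50 in uninjured vehicle and at 11.26, 10.54 and 11.37 in wound vehicle. Wound vehicle replicate 2 was the lowest of all 12 arrays, and replicate 3 of that group lay within the uninjured range. The difference was -0.52 ± 0.25 (95% interval -1.07 to 0.04; adjusted p = 0.417), and without wound vehicle replicate 2 it was -0.26. Dusp4, a nuclear phosphatase of ERK and other MAP kinases, differed in the other direction, by 0.65 ± 0.34 (adjusted p = 0.443). It was at 10.13, 9.51 and 9.30 in uninjured vehicle and at 10.39, 9.77 and 10.72 in wound vehicle, so that 1 array of each group overlapped. Dusp5, a nuclear phosphatase specific for ERK, differed by 0.24 ± 0.23 (adjusted p = 0.678), and without wound vehicle replicate 1, which held its highest value of 8.98, the difference was -0.03.

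Etv4 differed by 0.30 ± 0.13 (95% interval 0.02 to 0.58; adjusted p = 0.359). It read 7.25, 6.96 and 7.25 in uninjured vehicle and 7.57, 7.28 and 7.52 in wound vehicle, and the groups were separated by a narrow margin. Etv5, at 8.45, 8.54 and 8.79 against 9.09, 8.96 and 8.44, differed by 0.24 ± 0.22 (adjusted p = 0.661), and its groups overlapped. Without wound vehicle replicate 1 it was 0.11 and without replicate 3 it was 0.43. The Spred genes varied least among the 10. Spred1 differed by 0.01 ± 0.12, with a 95% interval of -0.27 to 0.28, and Spred2 by 0.18 ± 0.11, with an interval of -0.05 to 0.41.

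**Figure D2:**
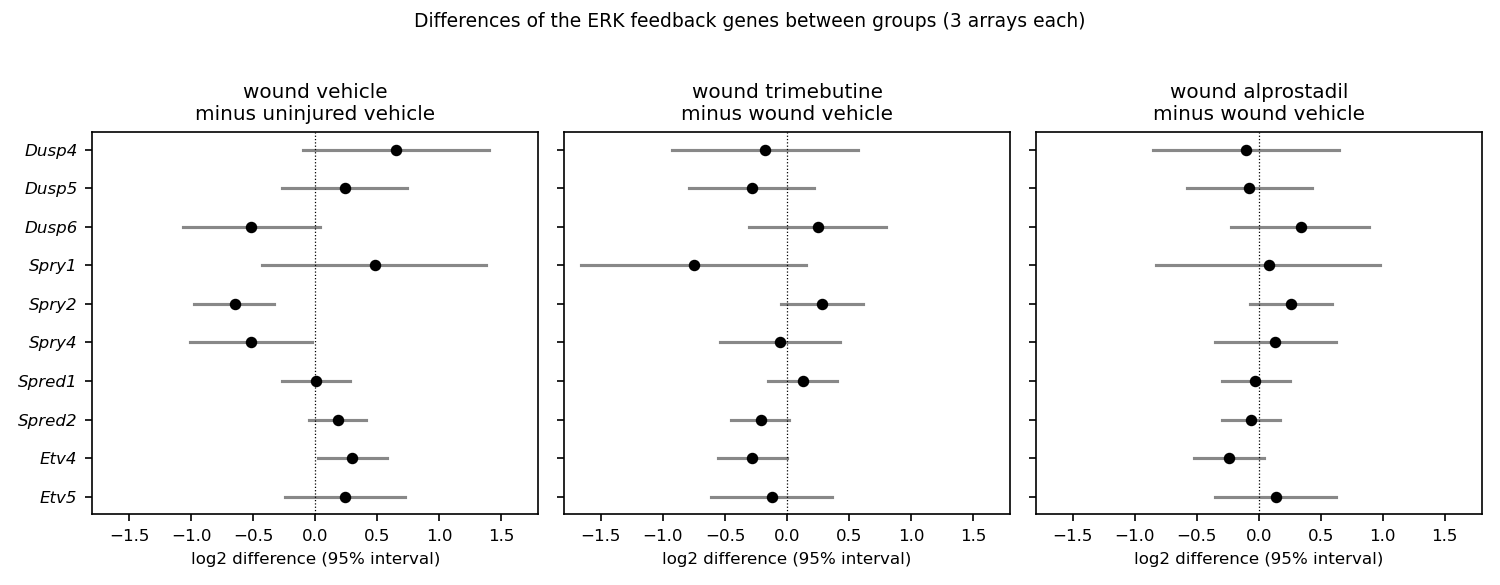
Points are log2 differences between group means for the 10 members and bars their 95% intervals from limma, in 3 comparisons with 3 arrays per group; the dotted line marks no difference. In wound vehicle against uninjured vehicle the intervals of Spry2 (-0.98 to -0.33), Spry4 (-1.01 to -0.03) and Etv4 (0.02 to 0.58) leave out 0 before adjustment, while in wound alprostadil against wound vehicle all 10 intervals include 0.

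These injury calls depended on how arrays were weighted. Array weights from limma were 0.68, 5.99 and 0.49 on uninjured vehicle replicates 1 to 3, and 2.7, 0.98 and 0.32 on those of wound vehicle. Each of these group means thus rested largely on 1 array. Wound alprostadil replicate 1 had a weight of 0.3. With the weights 7 members passed against 0 without them, and 38% of all tested genes passed (19.3% higher and 18.7% lower). Higher in wound vehicle were then Etv4 (0.49 ± 0.10, adjusted p = 0.00429), Dusp4, Dusp5, Spry1, Spred2 and Etv5, and lower was Spry2 (-0.60 ± 0.10, adjusted p = 0.00244). All 19 mitosis genes tested had lower means in wound vehicle, with a median of -0.59 and 0 passing. Of 12 genes of endoplasmic reticulum and integrated stress 11 had higher ones, with a median of 0.44 and 0 passing. Scores are means with each gene centred on the 12 arrays. For mitosis they were 0.77, 0.2 and -0.52 on the uninjured and -0.94, -1.18 and 0.51 on the wound vehicle arrays. For stress they were -0.75, -0.48 and 0.45, and 0.62, 0.54 and -0.46. The groups overlapped in both scores. Of the 11 macrophage markers 8 were tested, and 7 of these had higher means in wound vehicle, with a median of 0.93 and 0 passing. The mean over all 11 was 6.66 to 7.14 on the uninjured and 7.04 to 7.76 on the wound vehicle arrays. The mean of 6 endothelial markers was 6.08 to 6.17 on the uninjured and 6.28 to 6.73 on the wound vehicle arrays, with Pecam1 at 5.78 to 6.14 and Cdh5 at 6.41 to 9.98 over all 12. The part of these in the differences of the members was not tested.

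Trimebutine was set against vehicle in spheres from wounds. This comparison shares the wound vehicle arrays with the injury comparison. Of the members 7 were lower with trimebutine and 3 (Spry2, Dusp6 and Spred1) higher, where all tested genes were split 50% to 50%. In limma 0 of 10 passed, as did 0% of all tested genes. Etv4 (lower) was the 1 member under an unadjusted p of 0.05, against 9.43% of all tested genes in either direction and 3.05% that were lower. The arrays did not overlap for Spry2 (higher) and for Spry1, Spred2 and Etv4 (lower), each by a narrow margin, against 15.8% of all tested genes (9.21% higher and 6.63% lower). The median over the members was -0.15, and it was 0 over all tested genes.

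Spry1 gave the largest difference, -0.75 ± 0.41 (95% interval -1.66 to 0.15; unadjusted p = 0.0932, adjusted p = 0.554). With trimebutine it was at 8.86, 8.95 and 8.70, just below the lowest wound vehicle array at 8.98 and far below the other two at 9.51 and 10.28. Without wound vehicle replicate 2 the difference was -0.41 and without replicate 3 it was -1.06. Spry2 was at 9.60, 9.38 and 9.20 with trimebutine and differed by 0.28 ± 0.15 (adjusted p = 0.546). Its lowest trimebutine array lay just above the highest wound vehicle array at 9.18. Etv4 was at 7.04, 7.22 and 7.27 and differed by -0.28 ± 0.13 (adjusted p = 0.53).

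Spred2, at 10.04, 9.96 and 9.99 with trimebutine against 10.27, 10.31 and 10.05, differed by -0.21 ± 0.11 (adjusted p = 0.539). Dusp6 was at 11.34, 11.41 and 11.16 with trimebutine, inside the range spanned by both vehicle groups. Dusp5 differed by -0.28 ± 0.23, Dusp6 by 0.25 ± 0.25 and Dusp4 by -0.18 ± 0.34. Without wound vehicle replicate 1 the Dusp5 value was -0.02 and without replicate 2 it was -0.50. The remaining values were 0.13 ± 0.12 for Spred1, -0.12 ± 0.22 for Etv5 and -0.06 ± 0.22 for Spry4. Spry4 therefore stayed near the wound vehicle level, with trimebutine arrays at 10.27, 9.69 and 9.76. With array weights 3 members passed, all lower with trimebutine (Spred2, Dusp5 and Spry1), where 30.7% of all tested genes passed (14.2% lower). The 3 trimebutine arrays lay close together for most members, with an SD of 0.13 for Spry1 against 0.65 in wound vehicle and 0.77 in wound alprostadil, a difference of spread that was not tested. All 19 mitosis genes had higher means with trimebutine (median 0.71, 0 passing) and all 12 stress genes lower ones (median -0.49, 0 passing). The groups overlapped in both mean scores, with wound vehicle replicate 3 at 0.51 for mitosis and -0.46 for stress. The trimebutine arrays were at 0.7, 0.12 and 0.15 for mitosis and at 0.34, -0.55 and -0.61 for stress. Of the 8 tested macrophage markers 7 had lower means with trimebutine (median -1, 0 passing), and the mean over all 11 was 6.34 to 7.09 on its arrays. The part of these lists was not tested.

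Alprostadil was set against vehicle in the same way. The members were split evenly, 5 higher and 5 lower, with a median of 0.03 that equalled the median over all tested genes, of which 59.4% were higher and 40.6% lower. In limma 0 of 10 passed, with 0% of all tested genes, and 0 members had an unadjusted p under 0.05, against 2.75% of all tested genes. Spry2 alone did not overlap, at 9.52, 9.22 and 9.39 against at most 9.18 in wound vehicle, where 5.9% of all tested genes did not overlap (2.78% higher). It differed by 0.26 ± 0.15 (95% interval -0.07 to 0.59; adjusted p = 0.998). Dusp6 differed by 0.34 ± 0.25 and Etv4 by -0.24 ± 0.13, each with an adjusted p of 0.998. The other 7 lay between -0.10 (Dusp4) and 0.14 (Etv5). Their intervals reached -0.85 and 0.65 for Dusp4 and -0.83 and 0.98 for Spry1, so differences of that size in either direction were not excluded.

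The alprostadil arrays themselves were far apart. Spry1 was at 9.82, 10.36 and 8.83, Dusp4 at 10.82, 10.22 and 9.53, and Dusp6 at 11.85, 11.06 and 11.27. Replicate 1, the array with macrophage markers, held the highest Dusp4, Dusp5, Dusp6, Spry2 and Spry4 values of its group. Without it the difference from wound vehicle was 0.19 for Spry2 and 0.11 for Dusp6, and without wound vehicle replicate 2 that of Dusp6 was 0.08. With alprostadil all 19 mitosis genes had higher means than in wound vehicle (median 0.54, 0 passing), as had 7 of 8 tested macrophage markers (median 0.69, 0 passing). The mean over all 11 macrophage markers was 11.07, 6.36 and 6.83 on alprostadil replicates 1 to 3. On the wound vehicle arrays it was 7.26, 7.76 and 7.04, above alprostadil replicates 2 and 3. The mean mitosis score was 1.01, -0.94 and 0.13 with alprostadil and -0.94, -1.18 and 0.51 in wound vehicle. The part of both lists was not tested. Leaving out wound alprostadil replicate 3 gave a median over the members of 0.23 in place of 0.03.

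Set directly against each other, trimebutine and alprostadil gave 0 members past the threshold, with 0% of all tested genes, and 0 at an unadjusted p under 0.05, with 4.42% of all tested genes. No member was without overlap, against 11.2% of all tested genes. Spry1 had the largest difference, -0.83 ± 0.41 with trimebutine minus alprostadil (95% interval -1.74 to 0.07; adjusted p = 0.752). It was -0.49 without wound alprostadil replicate 2 and -1.25 without replicate 3. Etv5 differed by -0.26 ± 0.22 and Dusp5 by -0.21 ± 0.23, and 8 of the 10 members were lower and 2 higher with trimebutine, with a median of -0.12, where 53.8% of all tested genes were lower and 46.2% higher. Etv5 was -0.10 without wound alprostadil replicate 2 and -0.48 without replicate 3, and Dusp5 was -0.07 without replicate 1 and -0.35 without replicate 3. All 12 stress genes had lower means with trimebutine than with alprostadil (median -0.54, 0 passing), as had all 8 tested macrophage markers (median -1.61, 0 passing). The mean over all 11 macrophage markers was 7.09, 6.41 and 6.34 with trimebutine and 11.07, 6.36 and 6.83 with alprostadil. Only alprostadil replicate 1 thus lay outside the trimebutine range. Of 19 mitosis genes 18 had higher means with trimebutine (median 0.28, 0 passing). In the mean scores of the stress and mitosis genes the arrays of both groups overlapped. The part of these lists was not tested. Spry2 was nearly equal, with a difference of 0.02 ± 0.15 and an interval of -0.31 to 0.35.

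Both drug groups were also set against uninjured vehicle, comparisons that share the uninjured arrays with the injury comparison. Spry2 differed by -0.37 ± 0.15 with trimebutine (unadjusted p = 0.0293, adjusted p = 0.623) and by -0.39 ± 0.15 with alprostadil (unadjusted p = 0.023, adjusted p = 0.651), beside -0.65 ± 0.15 with vehicle. Spry4 differed by -0.57 ± 0.22 with trimebutine (unadjusted p = 0.0259, adjusted p = 0.594) and by -0.38 ± 0.22 with alprostadil (adjusted p = 0.709). Means of both genes were thus highest in uninjured vehicle. For trimebutine 0 of 10 members passed beside 0.198% of all tested genes, and for alprostadil 0 of 10 beside 0%. At an unadjusted p under 0.05 the counts were 2, both lower (7.13% of all tested genes, 3.6% lower), and 1, lower (7.25%, 3.97% lower). With trimebutine no member was without overlap (13.7% of all tested genes), and with alprostadil Spry2 was, on the lower side (9.41%, 4.36% lower). Without uninjured vehicle replicate 1 the Spry2 values were -0.22 and -0.24, and those of Spry4 -0.35 and -0.16. With array weights both Spry2 (-0.32) and Spry4 (-0.59) passed for trimebutine, with 16.5% of all tested genes (8.01% lower).

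In the order of group means, neighbouring groups overlapped for every member except at 1 place, between wound alprostadil and wound vehicle for Spry2. Uninjured vehicle was highest for Dusp6, Spry2 and Spry4. It was lowest for Dusp4, Etv4 and Etv5. Wound trimebutine was lowest for Dusp5, Spry1, Spry4 and Spred2 and highest for Spred1.

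Members were next compared with each other over the 12 arrays. Of the 45 pairs 26 correlated positively and 19 negatively, with a median Pearson r of 0.12. Spry2 and Spry4 varied together, with r = 0.83 (permutation p = 0.00176, adjusted over the 45 pairs 0.0396). The rank correlation was lower, with Spearman's rho = 0.64 (permutation p = 0.0261, adjusted 0.293), and did not pass. After group means were subtracted r was 0.84, and without the 2 arrays farthest from the median of Spry2 it was 0.72. Dusp6 correlated with Spry4 at r = 0.69 and rho = 0.6 (permutation p = 0.0186 and 0.0432, adjusted 0.172 and 0.324) and with Spry2 at r = 0.66 and rho = 0.6 (permutation p = 0.023 and 0.0431, adjusted 0.172 and 0.324), and neither pair passed. Spry2 and Etv4 went in opposite directions, with r = -0.61 and rho = -0.81 (permutation p = 0.036 and 0.002, adjusted 0.231 and 0.09), and did not pass. In uninjured vehicle, wound trimebutine and wound alprostadil, replicate 1 was the highest array of its group for both Spry2 and Spry4. These arrays had the lowest medians of the 12 (6.61, 6.62 and 6.57). They also had the highest mean mitosis scores, with each gene centred on the 12 arrays (0.77, 0.7 and 1.01). The part of these in the correlation was not tested. Pairs share the array, its RNA and its normalization.

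Spry1 values fell into 2 sets. On 7 arrays it was at most 8.98 and on the other 5 at least 9.51, and these were uninjured vehicle replicate 3, wound vehicle replicates 1 and 2, and wound alprostadil replicates 1 and 2. On the same 5 arrays Etv5 was at 8.79, 9.09, 8.96, 9.07 and 9.30, and elsewhere at most 8.90. Spry1 and Etv5 were the other pair that passed by Pearson's r after adjustment (permutation p = 0.00127, adjusted 0.0396), though not by Spearman's rho (permutation p = 0.011, adjusted 0.248), and no pooled coefficient is given because of the 2 sets. Among the 7 arrays of lower Spry1 the r of both genes was 0.02, over the narrow range of Spry1 there. The mean score of 12 stress genes, each centred on the 12 arrays, was 0.45 to 0.63 on those 5 arrays. It was 0.34 on wound trimebutine replicate 1, where Spry1 was 8.86, and -0.75 to -0.24 on the others. The same 5 arrays lay apart on the first principal component of all tested genes, the axis of largest variation (43.8% of the variance). They were at 7.5 to 38.9 on it, and the others at -27.7 to -10.8. The part of the stress genes and of this component was not tested.

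**Figure D3:**
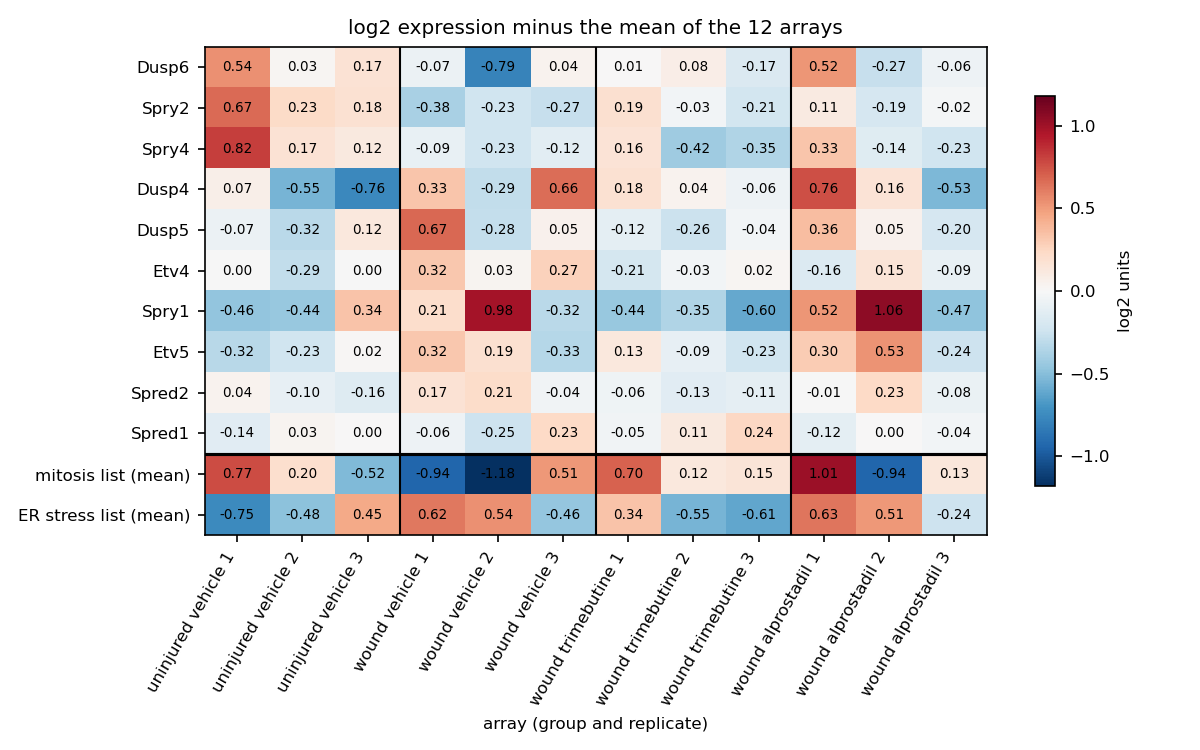
Colours and printed numbers give log2 expression minus the mean of the 12 arrays for the 10 members (upper rows) and the mean of the same for 19 mitosis and 12 stress genes (lower rows), with arrays in columns by group and replicate. Dusp6, Spry2 and Spry4 are highest on uninjured vehicle replicate 1, and Spry1 is highest on wound vehicle replicate 2 and wound alprostadil replicate 2.

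**Figure D4:**
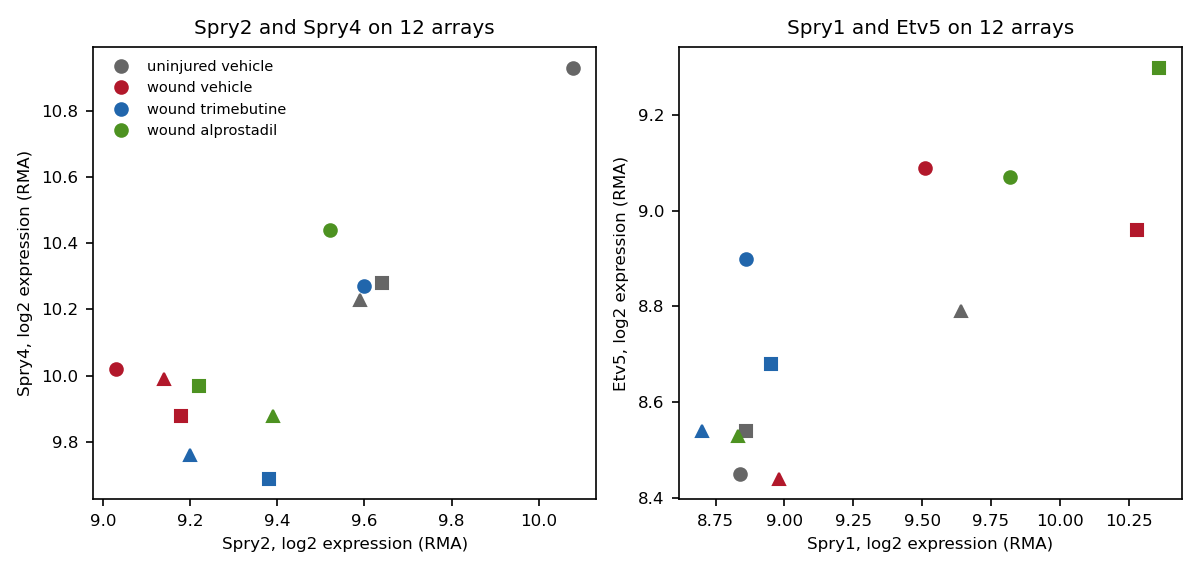
Each point is 1 array, coloured by group and shaped by replicate (circle, square and triangle for 1, 2 and 3), with log2 expression (RMA) on both axes. Spry2 and Spry4 lie along a common slope whose upper end is uninjured vehicle replicate 1 (10.08 and 10.93), and Spry1 leaves a gap between 8.98 and 9.51.

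Promoter sequences were read for the members from the RefSeq table on build GRCm38.p6, which held windows for 7 of the 10 (8 windows, with 2 for Etv5). The 250 bases before the annotated start were searched on both strands. The motifs were the ETS motif CCGGAA, the sites TGAATGAA and TGAATGGA of the repressor CIC and the AP-1 site TGANTCA. Further ones were the cyclic AMP element TGACGTCA, its part TGACG, which lies within it, and the CArG box of SRF. Shorter or other ETS sites and other forms of the CIC site were not searched. Shown are Dusp5, the only member window with a CArG box, and Dusp6, Spry2 and Spry1, which stand for genes with lower and with higher means in wound vehicle. Capitals mark CArG boxes and TGACG on either strand.
Dusp5 promoter, GRCm38.p6 chr19:53528895-53529144, plus strand: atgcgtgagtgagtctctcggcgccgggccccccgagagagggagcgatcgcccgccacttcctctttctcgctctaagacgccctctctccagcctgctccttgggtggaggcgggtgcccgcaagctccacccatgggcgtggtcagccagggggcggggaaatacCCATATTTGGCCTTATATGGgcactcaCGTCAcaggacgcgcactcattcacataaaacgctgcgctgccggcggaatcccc
Dusp6 promoter, GRCm38.p6 chr10:99262981-99263230, plus strand: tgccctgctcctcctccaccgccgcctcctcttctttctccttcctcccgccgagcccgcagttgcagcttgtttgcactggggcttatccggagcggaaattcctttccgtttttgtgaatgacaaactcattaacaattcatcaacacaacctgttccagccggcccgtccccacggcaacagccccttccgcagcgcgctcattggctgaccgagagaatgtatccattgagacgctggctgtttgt
Spry2 promoter, GRCm38.p6 chr14:105896820-105897069, minus strand: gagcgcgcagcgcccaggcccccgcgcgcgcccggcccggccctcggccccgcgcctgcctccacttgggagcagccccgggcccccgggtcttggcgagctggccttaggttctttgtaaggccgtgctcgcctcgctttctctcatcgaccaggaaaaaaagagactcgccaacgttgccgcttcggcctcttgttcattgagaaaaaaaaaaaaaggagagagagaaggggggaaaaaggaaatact
Spry1 promoter, GRCm38.p6 chr3:37639697-37639946, plus strand: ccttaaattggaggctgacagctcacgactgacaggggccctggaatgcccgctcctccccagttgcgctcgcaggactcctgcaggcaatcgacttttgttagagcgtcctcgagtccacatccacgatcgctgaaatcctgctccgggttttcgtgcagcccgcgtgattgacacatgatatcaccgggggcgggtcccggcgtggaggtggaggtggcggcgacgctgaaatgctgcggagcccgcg
Dusp5 held 2 CArG boxes next to each other. Of the 32851 windows of this length 6 held 2 or more such boxes and 1.47% held at least 1. TGACG was found in 2 of 8 member windows (Dusp5 and Spred2) and in 17.8% of all windows. The ETS motif CCGGAA was in 0 of 8 and 12% of all windows, and shorter or other ETS sites were not counted. The AP-1 site was in 0 of 8 and 6.75%, and the full cyclic AMP element in 0 of 8 and 1.55%. The CIC sites TGAATGAA and TGAATGGA were in 0 of 8 and 1.08% and 1.01%. Other forms of the CIC site were not counted, so a window without these may still hold one. These are matches of letters within this window only.

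Other genes of the pathway were counted from lists. Of 27 tested ERK feedback and target genes outside the 10, 0 passed in any of the comparisons. In wound vehicle against uninjured vehicle 2 were higher and 8 lower at an unadjusted p under 0.05 (4.75% and 8.24% of all tested genes), with a list median of -0.17. The smallest p belonged to Spry3 (-1.20 ± 0.35, adjusted p = 0.221), Dusp1, a phosphatase of several MAP kinases (-1.08 ± 0.33, adjusted p = 0.229), and the immediate early factor Egr1 (-0.84 ± 0.26, adjusted p = 0.238). Their uninjured means were 9.75, 10.54 and 10.94 and their wound vehicle means 8.55, 9.46 and 10.10. With trimebutine minus wound vehicle the smallest p belonged to Spred3 (-0.54 ± 0.17), Hmga2 (-0.56 ± 0.21) and Dusp9 (-0.62 ± 0.28), and with alprostadil to Dusp2 (-0.16 ± 0.10), Ier2 (0.46 ± 0.30) and Spred3 (-0.27 ± 0.17). None of these passed, and the list medians were -0.10 and 0.14.

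Among 20 tested receptors and ligands that feed ERK 0 passed, and in the injury comparison 3 were higher and 5 lower at an unadjusted p under 0.05 (4.75% and 8.24% of all tested genes). With trimebutine minus wound vehicle 4 were higher and 0 lower at that p (9.43% of all tested genes in either direction, 3.05% lower). With alprostadil minus wound vehicle there were 0 (2.75% of all tested genes in either direction). The list medians were -0.16, 0.20 and 0.11 in the injury, trimebutine and alprostadil comparisons. Egfr, the receptor of the EGF in the medium, had a mean of 11.81 ± 0.36 in uninjured vehicle, 10.81 ± 0.48 in wound vehicle, 11.73 ± 0.21 with trimebutine and 10.95 ± 0.66 with alprostadil (SD, n = 3). Its difference was -0.99 ± 0.33 for wound vehicle minus uninjured vehicle (adjusted p = 0.282) and 0.92 ± 0.33 for trimebutine minus wound vehicle (adjusted p = 0.528), comparisons that share the wound vehicle arrays. Fgfr1, a receptor that can bind the FGF2 in the medium, stayed within 12.15 to 12.61 on the 12 arrays. Fgfr2, a further FGF receptor, had means of 7.9 in uninjured and 7.17 in wound vehicle, 7.82 with trimebutine and 7.73 with alprostadil. Its difference was -0.73 ± 0.32 for wound vehicle minus uninjured vehicle (adjusted p = 0.373). The other leading values were Fgf7 (-1.82 ± 0.44) and the EGF receptor ligand Btc (0.78 ± 0.24) in the injury comparison, and Pdgfrb (0.72 ± 0.26) and Erbb2 (0.41 ± 0.15) with trimebutine. With alprostadil they were Fgfr2 (0.56 ± 0.32), Fgf1 (-0.18 ± 0.12) and Fgf18 (0.39 ± 0.28), and none passed.

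Of 30 tested genes of the cascade 0 passed, with 3 higher and 4 lower at an unadjusted p under 0.05 for injury (4.75% and 8.24% of all tested genes), and the list medians were -0.04, -0.01 and 0.04 in the injury, trimebutine and alprostadil comparisons. Nras (0.42 ± 0.12), the phosphatase Ptpn11 (-0.27 ± 0.09), which couples receptors to RAS, and the scaffold Ksr1 (-0.56 ± 0.19) had the smallest p for injury, with adjusted p of 0.218 to 0.289. Ptpn11 (0.25 ± 0.09), the adaptor Gab1 (0.64 ± 0.27) and Nras (-0.25 ± 0.12) led with trimebutine. Ptpn11 (0.18 ± 0.09), the adaptor Grb2 (0.23 ± 0.14) and Elk4 (0.15 ± 0.10) led with alprostadil, again without passing.

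All 13143 tested genes other than the members, further genes of the pathway included, were compared with the mean of the 10 members over the 12 arrays. Those that varied most like it were Prr13 (r = 0.94, rho = 0.95), Srxn1 (r = 0.93, rho = 0.92), 2210016F16Rik (r = 0.93, rho = 0.97), Tbl3 (r = 0.92, rho = 0.87) and Bcl2l1 (r = 0.92, rho = 0.87). The most opposed were Mir666 (r = -0.95, rho = -0.97), Mndal (r = -0.91, rho = -0.9) and Tnn (r = -0.9, rho = -0.87). They were picked as extremes of all genes, so no p is given. That mean was held together weakly, since the r of a member with the mean of the other 9 ran from -0.43 for Spred1 to 0.62 for Dusp5. The 2 members with another probe set gave r of 0.78 (rho = 0.84) for Dusp6 and 0.73 (rho = 0.79) for Etv5 between both probe sets, although the dimmer one of Dusp6 never rose above the array median.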

How the data were processed

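RNA of 12 SKP cultures was measured on Affymetrix Mouse Gene 2.0 ST arrays. The deposited values are log2 expression per probe set, which the authors obtained by RMA in oligo, per the submitters' processing notes. No version, setting or genome build was stated there. Of 41345 probe sets, 23521 carry 1 symbol in the platform annotation, 1814 several and 16010 none, and only the first kind was used.

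The brightest probe set was kept per symbol (22180 genes), and genes exceeding the median of an array on 3 or more arrays were tested (13153 genes). A model of the 4 groups was fitted with limma 3.58.1 under R 4.3.3, leaving 8 residual degrees of freedom. P-values are two-sided and adjusted by Benjamini-Hochberg over all tested genes, with a threshold of 0.05. Correlations of members used 100000 permutations. The fits and the permutation test were tested on simulated data. The number of arrays limits the precision.

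The members and lists were chosen with earlier results of these data known. All 10 members are named, with, from each pathway list, the 3 genes of smallest p in the injury comparison and in both drug against wound vehicle comparisons, and the 5 most and 3 least like the members' mean. Whether replicate numbers pair the arrays was not settled. Of 18 pairs of the same number 11 correlated above 0.1 in their deviations from group means, over a range of -0.64 to 0.62. Their median r was 0.22, against -0.11 for pairs of different numbers. Alternatives were a replicate block, other filters, probe set means, cyclic loess, centring on medians or housekeeping genes, an intensity trend with a robust prior, array weights, fits of just the compared pair, a threshold of 0.1 and the omission of single arrays. Omitting together the 3 arrays with the lowest medians was chosen after seeing the data. Matplotlib 3.10.9 drew the figures.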

Additional observations from a re-analysis of the deposited data

How the results depend on the processing

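The count of 0 members past the threshold held in all 6 comparisons and in the F test under every alternative run, leave-one-array-out fits included, except for array weights, under which 7 members passed for wound vehicle minus uninjured vehicle, 3 for trimebutine minus wound vehicle and 2 for trimebutine minus uninjured vehicle. Array weights also moved the median over the members for alprostadil minus uninjured vehicle from 0.09 to 0.25, for injury from 0.21 to 0.35 and for trimebutine minus wound vehicle from -0.15 to -0.26. The cause was not tested. Leaving out each array in turn gave medians of -0.06 to 0.23 for alprostadil minus wound vehicle, 0.07 to 0.27 for injury, -0.23 to -0.02 for trimebutine minus wound vehicle, -0.25 to -0.04 for trimebutine minus alprostadil, -0.12 to 0.02 for trimebutine minus uninjured vehicle and 0 to 0.14 for alprostadil minus uninjured vehicle. With the replicate block no member passed, the smallest adjusted p for wound vehicle minus uninjured vehicle was 0.137, and 5 of 12 arrays correlated best with an array of their own number. The block moved the count of all genes called for injury from 6 to 2 and for trimebutine minus uninjured vehicle from 26 to 10. These counts of all genes also moved to 1 and 17 with median centring, 0 and 15 with only the groups compared, 0 and 0 without the 3 arrays of lowest median, and 4997 and 2171 with array weights. For injury a threshold of 0.1 gave 21 genes, and for trimebutine minus uninjured vehicle a stricter filter gave 12, cyclic loess 16 and housekeeping genes 17. Array weights gave 4034 genes for trimebutine minus wound vehicle and 562 for alprostadil minus uninjured vehicle, both 0 without weights. Single omissions gave 0 to 30 genes for injury and 0 to 27 for trimebutine minus uninjured vehicle.

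Differences under 0.2 log2 units were followed only in the comparisons of injury and of trimebutine with wound vehicle. Some differences changed sign. For injury Spred1 was 0.01, and 0 with cyclic loess, -0.04 with median centring, -0.06 with housekeeping genes, -0.10 with array weights and -0.04 without the 3 arrays of lowest median. Over single omissions it ran from -0.12 to 0.12, and Dusp5 from -0.03 to 0.45. For trimebutine minus wound vehicle the ranges were -0.44 to 0.03 for Dusp4, -0.01 to 0.40 for Dusp6, -0.32 to 0.01 for Etv5 and -0.24 to 0.05 for Spry4, which was 0.01 with housekeeping genes. Without the 3 arrays of lowest median Spry2 and Spry4 differed by -0.50 and -0.29 for injury (adjusted p = 0.275 and 0.414).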
